A study of Mus musculus with 35 samples.

Results

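The transcripts described here are those of 7 myelin genes, Mbp, Mobp, Cnp, Mog, Mag, Cldn11 and Mal, as they were counted in sorted mouse microglia. They were taken by symbol from the table of read counts, which holds 21236 genes, and all 7 were in it. Myelin is the layered membrane that oligodendrocytes wrap around axons. Its compact layers are held together by the basic proteins of Mbp and Mobp, while Cnp keeps channels of cytoplasm open, Mag sits next to the axon, Mog lies on the outermost layer, Cldn11 forms the tight junctions of the sheath and Mal sorts lipids and proteins into it. Microglia are the resident macrophages of the brain. They engulf myelin and its debris and lie close to oligodendrocytes. The Mbp locus also yields golli transcripts, which are found in cells of the immune system, and Cnp transcripts are found outside the oligodendrocyte lineage as well. Counts per gene do not separate these isoforms.

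The cells were tdTomato-positive cells of adult mice carrying both Tmem119-2A-CreERT2 and Ai14(RCL-tdTomato)-D, in which Cre is made from the Tmem119 locus of microglia and becomes active with Tamoxifen. Every sample shared these alleles and this treatment. Midbrain, striatum and prefrontal cortex (PFC) of 12 mice, 6 male and 6 female, gave 35 samples. There were 6 per region and sex, except for 5 in the male PFC, which has none of mouse 3. Regions of 1 mouse share an animal, and each sample is 1 region of 1 mouse, sorted on its own.

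The bases before the transcription start are shown for 4 members, because Mog and Mal were the pair whose levels moved most alike, Mobp followed Mbp, and Cnp was among the steadiest. RefSeq (GRCm38.p6) gave windows for 6 of the 7 members. Each window is the 250 bases before the RefSeq start, 5′ to 3′ on the strand of the gene. For some members this start differs from that of the GENCODE annotation used below. The windows of Mobp and Cnp, and some of Mag, therefore reach into the gene as GENCODE places it. Capitals mark ACAAAG and its reverse complement CTTTGT, the core letters bound by SOX factors such as SOX10 of oligodendrocytes, and CAGCTG, an E-box of the kind bound by OLIG factors. Both strands were searched, and no matches overlapped. Of 32817 windows of the same length over all genes, 16.5% held the SOX letters and 13% held CAGCTG.
Mobp, chr9:120149492-120149741 (+): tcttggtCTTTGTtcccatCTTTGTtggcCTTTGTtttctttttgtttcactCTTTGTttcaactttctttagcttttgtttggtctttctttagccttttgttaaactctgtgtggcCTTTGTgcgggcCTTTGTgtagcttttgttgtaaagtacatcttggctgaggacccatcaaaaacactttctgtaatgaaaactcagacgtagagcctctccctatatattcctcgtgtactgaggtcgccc
Cnp, chr11:100574689-100574938 (+): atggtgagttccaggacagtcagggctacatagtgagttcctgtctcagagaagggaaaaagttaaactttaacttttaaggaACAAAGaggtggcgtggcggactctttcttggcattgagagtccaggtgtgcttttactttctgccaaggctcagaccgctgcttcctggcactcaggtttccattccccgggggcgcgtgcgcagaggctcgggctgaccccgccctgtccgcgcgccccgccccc
Mog, chr17:37023399-37023648 (-): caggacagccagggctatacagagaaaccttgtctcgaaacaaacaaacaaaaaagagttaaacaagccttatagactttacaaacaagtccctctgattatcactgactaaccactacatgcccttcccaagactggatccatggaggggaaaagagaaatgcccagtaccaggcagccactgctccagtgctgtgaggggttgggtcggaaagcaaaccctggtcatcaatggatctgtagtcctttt
Mal, chr2:127656696-127656945 (-): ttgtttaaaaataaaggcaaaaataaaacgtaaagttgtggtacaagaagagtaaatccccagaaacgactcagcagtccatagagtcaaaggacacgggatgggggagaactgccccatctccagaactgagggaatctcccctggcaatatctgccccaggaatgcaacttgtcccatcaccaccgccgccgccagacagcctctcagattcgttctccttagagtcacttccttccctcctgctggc
The Mobp window held the SOX letters 6 times, between 243 and 120 bases before the start, and the Cnp window 1 time, 167 bases before it. Of 3 windows for different starts of Mag, 2 overlapping ones held the same match, 126 and 67 bases before their starts. For the start at 67 bases, the bases that follow it were not found in an annotated transcript of Mag. In all, 3 of the 6 members with a window had a match. The 16.5% given above is a share of windows and not of genes, and Mag had 3 windows, so the 2 figures are not alike. Neither motif was found in the windows of Mog, Mal or Cldn11, and CAGCTG was found in none of the 8 windows of members. A match of 6 letters is a description and not a binding site.

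One count column is named as PFC of mouse 3, but the label of the sample with the same library number says striatum, and it was taken as striatum. In that sample Mbp was at 117.5 CPM (counts scaled to a common library size with TMM factors, the unit of all levels below), Mobp at 17.2, Mog at 6.19 and Mal at 7.72. The last 2 values lie above all 11 PFC samples, but those of Mbp and Mobp lie within the PFC ranges of 45.1 to 171 and 1.28 to 20.8 CPM. The sample also enters the region tests of these members, so their levels cannot decide its label. The paper reports the loss of a male PFC sample during dissociation, without naming the mouse. A sample held between 37680501 and 54131421 counts, and 3 counts, taken as the floor of detection, correspond to 0.0561 to 0.0789 CPM. The 12 genes of a microglia list summed to 43297 to 55139 CPM over all samples, with Csf1r at a mean of 7956 CPM, so the sorted material had the defining transcripts of its label in every sample. Added up, the 7 members came to 364 ± 41.9 CPM in 12 midbrain samples (mean ± SD), to 390 ± 85.5 in 12 striatum samples and to 297 ± 75.4 in 11 PFC samples. In bulk samples, fewer cells of a type and less RNA per cell cannot be told apart.

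The members lie on 7 chromosomes of GRCm38 (positions from GENCODE M21). Mbp is at chr18:82475146-82585637 (+), Mobp at chr9:120149707-120181484 (+), Cnp at chr11:100574904-100591729 (+), Mog at chr17:37010743-37023398 (-), Mag at chr7:30899176-30914873 (-), Cldn11 at chr3:31149920-31164324 (+) and Mal at chr2:127633226-127656695 (-). Cnp shares 154 exonic bases, 4.23% of its exon length, with Dnajc7 on the opposite strand, and Mobp shares 79 with a non-coding gene on its own strand. The use of strand in the counting is not given in the sources used here, so reads in those stretches cannot be assigned with certainty.

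The 7 members split by level and by how much they varied between samples. Cnp was the most abundant, with a mean of 162.9 CPM over 35 samples, a lowest value of 124.8 and a highest of 246.8. Mag ran from 40.7 to 79.3 CPM around a mean of 55.6. The coefficient of variation over samples was 15.6% for Cnp and 15.2% for Mag, within the 8.59% to 20.4% seen over the 12 microglia genes. Mbp was at a mean of 111 CPM and ran from 45.1 to 182, a 4.04-fold span with a coefficient of variation of 33.95%. Mobp, at a mean of 13.3 CPM, ran from 1.28 to 31.2, a span of 24.4-fold.

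Mog, Mal and Cldn11 were low and uneven. Mog had a mean of 3.07 CPM and a highest value of 18.1, Mal a mean of 4.89 and a highest of 26.2, and Cldn11 a mean of 0.876 and a highest of 3.92. Their coefficients of variation were 106%, 107% and 100.1%. Mog had no counts in 3 samples, Mal in 2 and Cldn11 in 2, which at these depths allows up to the floor given above.

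In some single samples the uneven members lay far from their medians while the steady ones moved less. In the midbrain of mouse 12, Mog and Mal had no counts, while Mag was at 56.4, Cnp at 157.5 and Mbp at 116.8 CPM against midbrain medians of 55.7, 158.8 and 135.4. In the PFC of mouse 1, Mog and Mal had no counts. Mag was at 40.7 CPM there, its lowest of all 35 samples, and Cnp at 130.6, against PFC medians of 50.7 and 139.9. In the PFC of mouse 4, Mog and Cldn11 had no counts, with Mag at 44.4 and Cnp at 139.3 CPM against the same medians. The striatum of mouse 9 held the highest value of 5 members. Mog was at 18.1, Mal at 26.2 and Cldn11 at 3.92 CPM, against striatal medians of 4.31, 7.90 and 1.06. Mag was at 79.3 and Cnp at 246.8, against medians of 59.5 and 170.7. From the lowest to the highest of all samples, Mag spanned 1.95-fold and Cnp 1.98-fold. The ratio of Mag to Cnp was 0.343 ± 0.0359 (SD, n = 35), from 0.282 to 0.436, whereas the ratio of Mobp to Mbp ran from 0.0283 to 0.178.

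**Figure D1:**
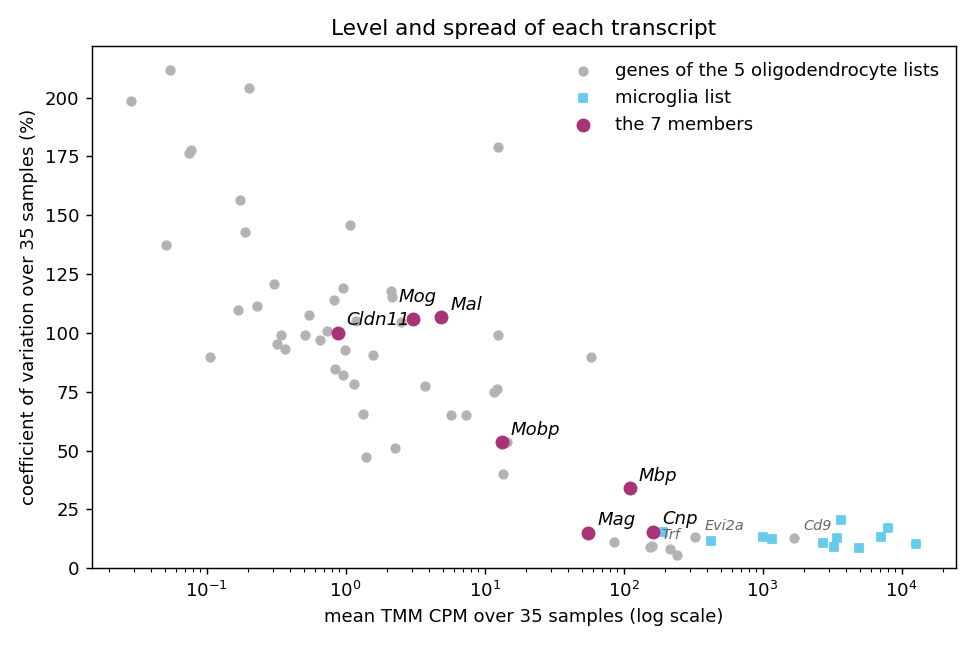
Mean level (x axis, TMM CPM, log scale) and coefficient of variation (y axis, percent) of each transcript over the 35 samples, for the 7 members, 51 other genes of the oligodendrocyte lineage and 12 microglia genes. Cnp and Mag, at 15.6% and 15.2%, sit at the spread of the microglia genes, Mbp at 33.95% lies above them, and Mog, Mal and Cldn11 are at 100.1% to 107%.

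Levels were also divided by the annotated exon length of each gene, which was 8469 bases for Mbp, 6849 for Mobp and 3639 for Cnp. This length is 1 value per gene. The lengths of the transcripts present were not measured, so the order of the members given here depends on the annotation. Per kilobase of this length, Cnp was highest, at 44.8 ± 6.98 CPM per kb (SD, n = 35). Mag, at 13.6 ± 2.07, and Mbp, at 13.1 ± 4.46, did not differ beyond their spread. Mobp, at 1.95 ± 1.04, Mog, at 1.80 ± 1.91, and Mal, at 1.76 ± 1.88, came next and did not differ beyond their spread, and Cldn11 was lowest, at 0.468 ± 0.469 CPM per kb. Cnp alone made up 47.2% of the members' summed CPM on average, Mbp 30.9% and Mag 16.2%, so the sum mainly follows these 3 and hides Mog, Mal and Cldn11, which had 0.777%, 1.23% and 0.220% of it.

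The study asked which transcripts of microglia differ between brain regions and between the sexes. Mbp, the basic protein of compact myelin, was lower in the PFC than in the midbrain and striatum, and it was the only member to pass the test of region over all genes in the model with region and sex as additive terms (edgeR's quasi-likelihood F-test, Benjamini-Hochberg adjusted p = 0.0337). The test called 8.89% of all 21236 genes. The midbrain samples ran from 86.9 to 152 CPM for Mbp, with a median of 135.4. The striatum ran from 86.2 to 182, with a median of 111, and the PFC from 45.1 to 171, with a median of 63.6. Of the 11 PFC samples, 8 lay below every midbrain sample and 8 below every striatum sample, but those of mice 11, 12 and 9, at 171, 138.2 and 107.6 CPM, lay within both ranges.

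The log2 fold change of Mbp for PFC over midbrain was -0.67 ± 0.19 (SE, edgeR adjusted p = 0.0222), a 1.59-fold lower level in the PFC, and the PFC was lower in 9 of 11 mice. A pair of regions was called where the region test passed and the pair had an unadjusted p under 0.05 and a fold change over 1.2. By this rule 3.24% of all genes had a called difference with PFC below midbrain, and 2.75% one with PFC above it. The striatum was higher than the PFC in 11 of 11 mice, with a log2 fold change of 0.58 ± 0.19 (SE). That difference was called by the rule, but its p adjusted over all genes was 0.147 in edgeR without the pairing by mouse, 0.00827 with the mouse as a block, and 0.0102 in limma-voom with the mouse as a random effect. Of all genes, 2.31% were called with striatum above PFC and 0.833% with striatum below it. Between striatum and midbrain Mbp differed by -0.085 ± 0.18 on the log2 scale (edgeR adjusted p = 0.850), where 3.5% of genes were called higher and 2.98% lower.

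Without mouse 2, 4, 5, 6, 7, 8 or 10, left out 1 at a time, the adjusted p for region lay between 0.0543 and 0.0993, and without each of the other 5 mice between 0.00208 and 0.0476. Without the striatum sample of mouse 3, whose column name disagrees with its label, it was 0.0410. With the mouse as a block, it was 0.000447.

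Mobp, which stabilises compact myelin together with Mbp, was likewise lowest in the PFC, but had its highest mean in the striatum, and it did not pass the region test (edgeR adjusted p = 0.0573). Its midbrain samples ran from 4.36 to 21.4 CPM with a median of 13.1, its striatum samples from 9.96 to 31.2 with a median of 17.9, and its PFC samples from 1.28 to 20.8 with a median of 5.50. All 11 mice had more Mobp in the striatum than in the PFC, at a log2 fold change of 1.13 ± 0.32 (SE). The PFC over midbrain value was -0.71 ± 0.32 and the striatum over midbrain value 0.42 ± 0.31. With the mouse as a block the adjusted p for region was 0.00610 and both differences from the PFC were called. The adjusted p for region was 0.0282 in DESeq2 and 0.00106 in limma-voom with the mouse as a random effect. In edgeR after filterByExpr it was 0.0465. In the additive edgeR model it was 0.0257 without mouse 11 and 0.0320 without mouse 12, so that either mouse changed the call.

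Mog, the outer-surface glycoprotein, Mal, the membrane sorting protein, and Cldn11, the claudin of the sheath, had their highest mean levels in the striatum. For Mog the midbrain ran from 0 to 5.10 CPM (median 2.04), the striatum from 0.840 to 18.1 (median 4.31) and the PFC from 0 to 3.27 (median 1.63). For Mal the midbrain ran from 0 to 8.63 CPM (median 2.52), the striatum from 1.38 to 26.2 (median 7.90) and the PFC from 0 to 5.77 (median 2.62). For Cldn11 the midbrain ran from 0.0393, which is below the floor, to 2.10 CPM (median 0.601), the striatum from 0.233 to 3.92 (median 1.06) and the PFC from 0 to 1.46 (median 0.215). Of the 12 striatum samples, 8 lay above every PFC sample for Mog, 7 for Mal and 5 for Cldn11.

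None of the 3 passed the region test, with edgeR adjusted p = 0.0951 for Mog, 0.0535 for Mal and 0.0823 for Cldn11. Their striatum over PFC log2 fold changes were 1.64 ± 0.58 (SE, higher in the striatum in 10 of 11 mice) for Mog, 1.68 ± 0.59 (10 of 11) for Mal and 1.78 ± 0.56 (11 of 11) for Cldn11. Against the midbrain, Mal was 1.66 ± 0.57 higher in the striatum on the log2 scale (10 of 12 mice), Mog 1.26 ± 0.55 and Cldn11 0.95 ± 0.53 (8 of 12 mice each). The PFC and the midbrain were close for Mal, at -0.022 ± 0.59. With the mouse as a block, Cldn11 passed the region test with an adjusted p of 0.0340, while Mog, at 0.142, and Mal, at 0.0900, did not. In limma-voom with the mouse as a random effect, all 3 passed, Mog at 0.0367, Mal at 0.0291 and Cldn11 at 0.00625. In DESeq2, Mal passed at 0.0402 and Cldn11 at 0.0380. Mal also passed in edgeR after filterByExpr, at 0.0411, and without mouse 5, at 0.0451.

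Cnp, the cytoplasmic phosphodiesterase of myelin, and Mag, the adhesion molecule next to the axon, differed least between regions. Cnp ran from 133.6 to 193.5 CPM in the midbrain (median 158.8), from 131.1 to 246.8 in the striatum (median 170.7) and from 124.8 to 193.0 in the PFC (median 139.9). Mag ran from 43.2 to 68.9 CPM in the midbrain (median 55.7), from 41.7 to 79.3 in the striatum (median 59.5) and from 40.7 to 60.9 in the PFC (median 50.7). The ranges of the 3 regions overlapped for both genes. The adjusted p for region in edgeR was 0.180 for Cnp and 0.361 for Mag, and their striatum over PFC log2 fold changes were 0.22 ± 0.082 and 0.19 ± 0.087 (SE, higher in 9 of 11 mice for each). With the mouse as a block, Cnp passed the region test, with an adjusted p of 0.0155, at a striatum over PFC log2 fold change of 0.23, which is under the minimum of 1.2-fold that the pair rule asks for.

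**Figure D2:**
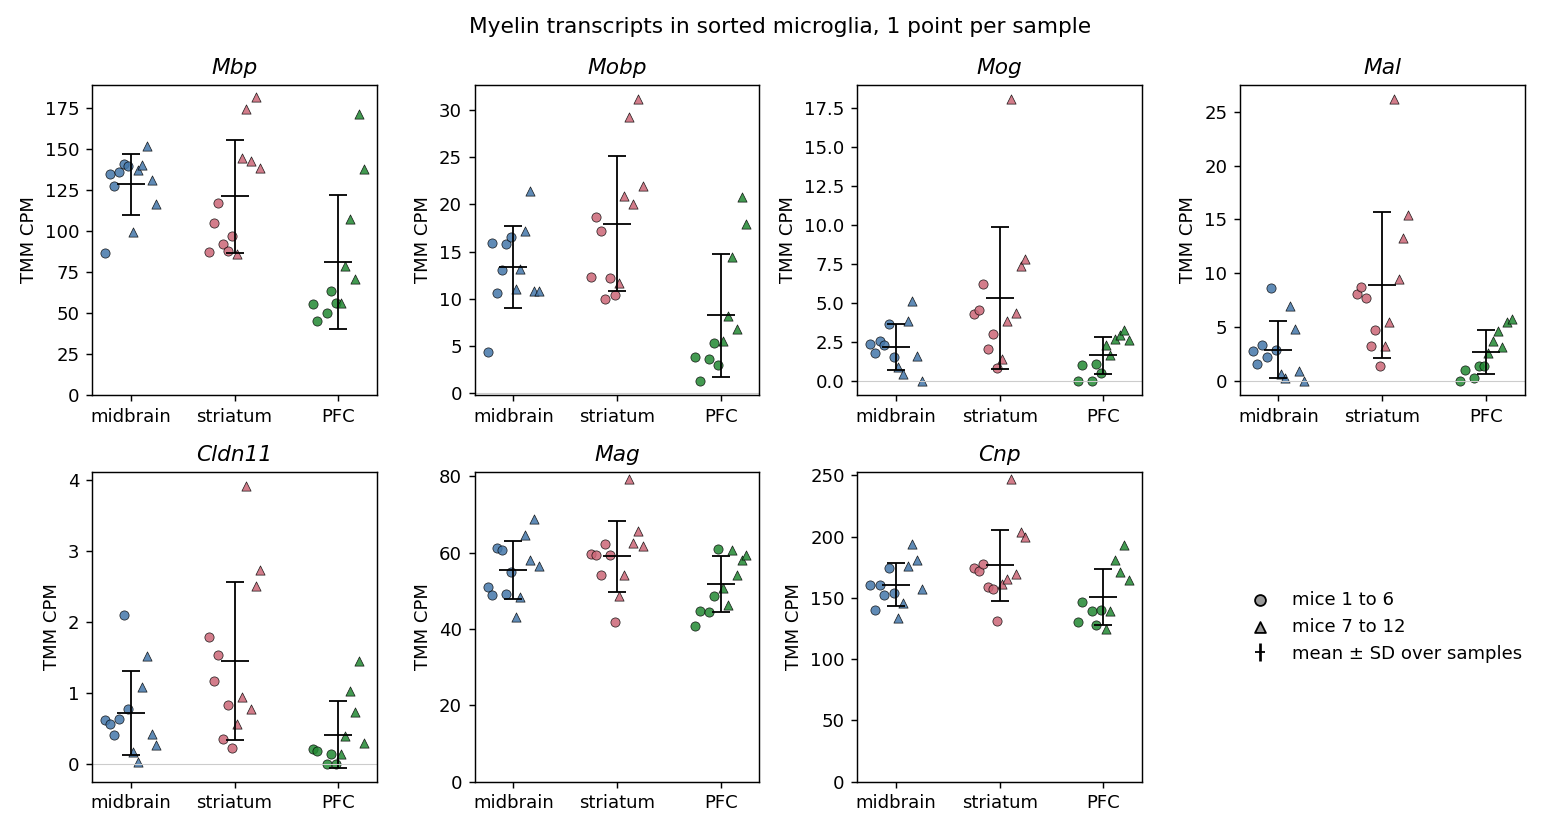
Levels of the 7 members (y axis, TMM CPM) in each sample of midbrain, striatum and PFC, with circles for mice 1 to 6, triangles for mice 7 to 12 and bars for the mean ± SD. The highest sample of every member is a striatum sample, of mouse 9 for 5 members and of mouse 11 for Mbp and Mobp.

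All 7 members had positive striatum over PFC log2 fold changes, with a median of 1.13 against a median of 0.0081 over all 21236 genes, and 1 of the 7 was called. None had a positive PFC over midbrain value (median -0.38, against 0.011 over all genes). For striatum over midbrain the value was positive in 6 of 7 (median 0.42, against 0.012), Mbp being the exception. These 3 comparisons share samples and are given side by side. The members also rose and fell together over samples, so these counts of signs are descriptions. The share of all genes with each sign was not counted. With the mouse as a block, which called 14% of all genes for region, 4 of the 7 members passed the region test (Mbp, Mobp, Cnp and Cldn11). In that fit 3 members were called lower for PFC over midbrain, against 3.77% of all genes, and 3 higher for striatum over PFC, against 3.67% (Mbp, Mobp and Cldn11 in both). For Cldn11 in PFC over midbrain the p of the pair adjusted over all genes was 0.238.

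**Figure D3:**
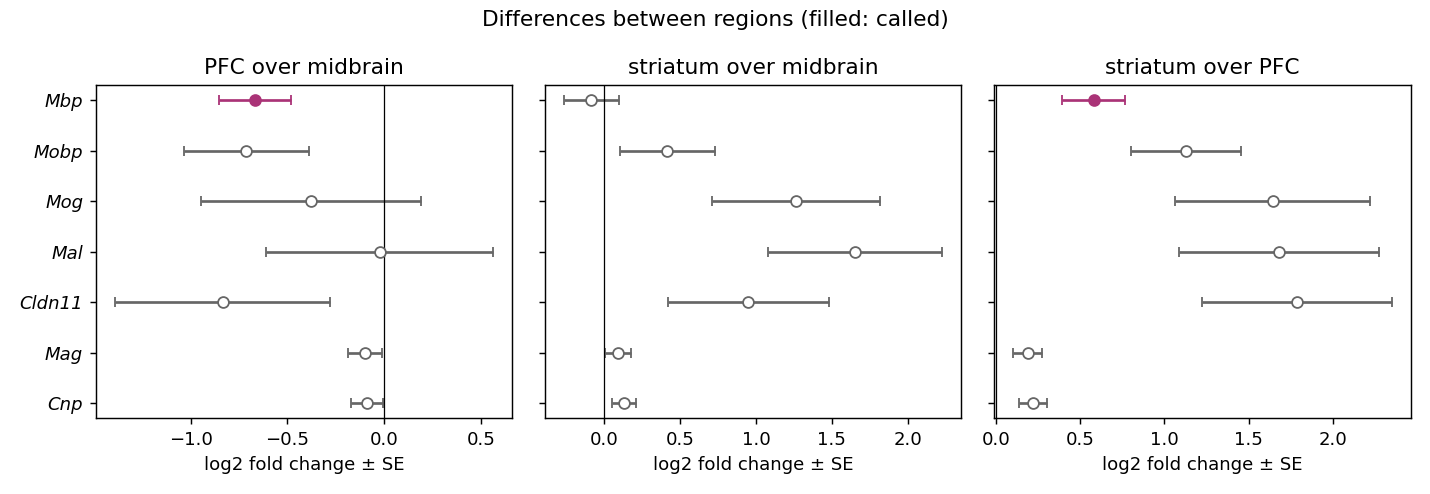
Log2 fold change ± SE (x axis) of each member for the 3 pairs of regions in the additive model, with filled points for called differences. Mbp is called for PFC over midbrain at -0.67 and for striatum over PFC at 0.58, and all 7 points lie to the right of 0 for striatum over PFC.

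Levels in the PFC differed between mice 1 to 6 and mice 7 to 12. In the PFC, Mobp was at 1.28 to 5.25 CPM in mice 1 to 6 and at 5.50 to 20.8 in mice 7 to 12, so the ranges did not overlap. The same held for Mog, at 0 to 1.05 against 1.63 to 3.27 CPM, and for Mal, at 0 to 1.38 against 2.62 to 5.77. How many of all genes had ranges that did not overlap in this way was not counted. The split therefore cannot be read as particular to the members. Mbp in the PFC had a mean of 54.1 ± 6.91 CPM (SD, n = 5) in mice 1 to 6 and 104 ± 44.2 (n = 6) in mice 7 to 12. Mag and Cnp moved less there, by 1.15-fold and 1.19-fold between the means. In the striatum the means of mice 7 to 12 were above those of mice 1 to 6 by 1.48-fold for Mbp, 2.05-fold for Mog and 2.15-fold for Mal, with overlapping ranges. In the midbrain the same ratio was 1.02 for Mbp, 0.837 for Mog and 0.636 for Mal. The labels name no batch, this difference was not tested, and the sources used here do not say whether these mice were handled apart.

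Within mice 1 to 6, Mbp and Mobp both passed the region test (edgeR adjusted p = 8.89e-05 and 0.00625), with PFC over midbrain log2 fold changes of -1.24 and -1.92. Within mice 7 to 12 neither did (edgeR adjusted p = 0.455 and 0.192), with values of -0.33 and -0.21. There the values of Mog, Mal and Cldn11 turned positive, at 0.38, 0.95 and 0.15. Of all genes, the region test called 2.41% in mice 1 to 6 and 5.57% in mice 7 to 12. The striatum over PFC value was positive for all 7 members in both sets of mice, and the difference between the sets was not tested.

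**Figure D4:**
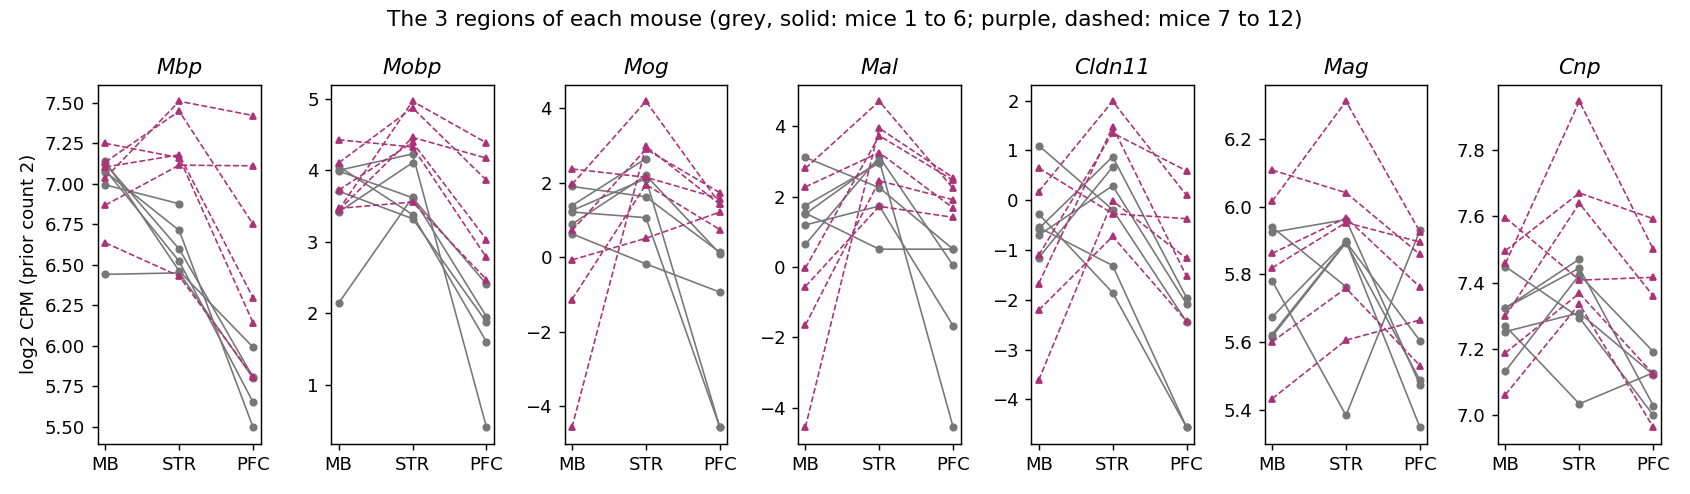
Log2 CPM (y axis, prior count 2) of each member in midbrain (MB), striatum (STR) and PFC, with 1 line per mouse, grey and solid for mice 1 to 6 and purple and dashed for mice 7 to 12. The lowest points of Mog, Mal and Cldn11 in the PFC, and of Mog and Mal in the midbrain of mouse 12, are samples with no counts, and Mbp falls from striatum to PFC in 11 of 11 mice.

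No member passed the study's rule for a main effect of sex (unadjusted p under 0.05 and a fold change over 1.2 in edgeR), which called 4.13% of all genes. The male over female log2 fold changes ran from 0.051 ± 0.15 (SE) for Mbp to 0.75 ± 0.44 for Cldn11, whose unadjusted p of 0.0993 was the smallest of the 7 (adjusted p = 0.741). Cldn11 was at 1.11 ± 1.02 CPM (SD, n = 17) in males and 0.650 ± 0.664 (n = 18) in females, with overlapping ranges, and it was called without mouse 7, at 0.97, and without mouse 10, at 1.05 on the log2 scale. DESeq2 and limma-voom also called no member for sex. Within single regions 0 of the 21 tests were called, where 4.84% of genes were called in the midbrain, 2.28% in the striatum and 5.29% in the PFC. The largest value was that of Cldn11 in the PFC, 1.13 ± 0.83 (SE, edgeR unadjusted p = 0.182). Without mouse 12, a female, Mbp and Mobp were called higher in males in the PFC.

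No member passed the test of a region-by-sex interaction. The edgeR test called 0% of genes at an adjusted p under 0.05, and 632 of 21236 had an unadjusted p under 0.05. DESeq2 and limma-voom called 1 gene each, which was no member. The smallest unadjusted p among the members was 0.349, for Mobp.

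With region-and-sex means taken out, the log2 CPM of the members correlated positively for every pair over the 35 samples, which share libraries and mice, so the correlations are descriptions. Mog and Mal were closest, with a Pearson r of 0.95 and a Spearman rho of 0.94 (n = 35), and r between 0.94 and 0.97 within each region. Mbp and Mobp had an r of 0.92. Cnp and Mag had 0.73, and Mag was least like Cldn11, at 0.42. Over the means of the 12 mice, Cnp and Mag reached 0.94.

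**Figure D5:**
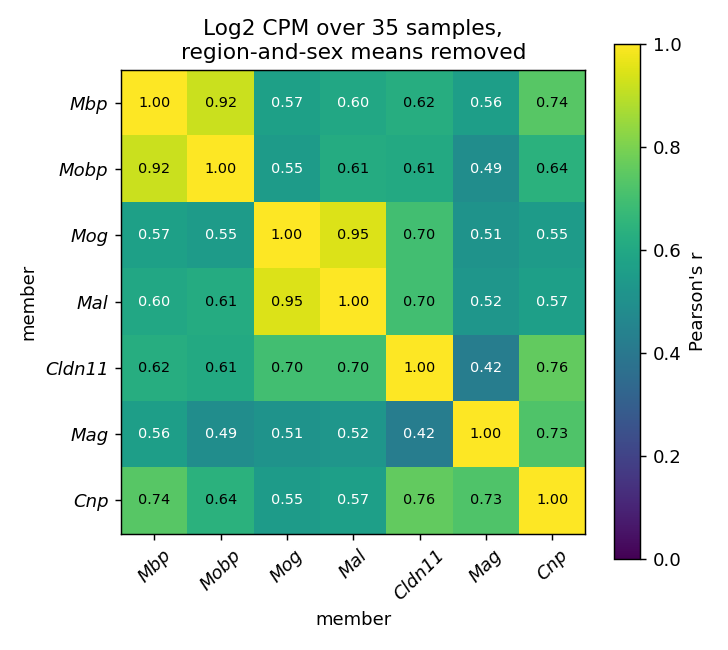
Pearson's r of log2 CPM between members (both axes) over 35 samples after the region-and-sex means were removed, from 0 (dark) to 1 (bright). The pairs Mog and Mal, at 0.95, and Mbp and Mobp, at 0.92, stand out, and Mag has its highest value, 0.73, with Cnp.

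Among all genes with a mean of at least 1 CPM, those most like Mog were Mal, Ugt8a (0.91), which makes the galactolipids of myelin, Enpp2 (0.90), Tspan2 (0.87) and Tmem88b (0.86). Mal had Mog, Ugt8a (0.91), Enpp2 (0.89) and Tspan2 (0.86). Mbp had Mobp, Plekhb1 (0.84), Csrp1 (0.83), Gpm6b (0.82) and S100b (0.78), and Mobp had Mbp, Csrp1 (0.83), Plekhb1 (0.82), Fads2 (0.80) and Car2 (0.79), a carbonic anhydrase of oligodendrocytes. Cldn11 had Aplp1 (0.84), Car2 (0.82), Tubb4a (0.79), Cnp (0.76) and Csrp1 (0.75). Cnp had Aplp1 (0.79), Selplg (0.77), a ligand of selectins on leukocytes at a mean of 4998 CPM, Sept4 (0.76), Aes (0.76) and Scd2 (0.76). Mag had Fasn (0.74), the fatty acid synthase, Eri3 (0.73), Cnp (0.73), Sept4 (0.72) and Mbd3 (0.72). Each value is Pearson's r over the 35 samples.

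The rest of the oligodendrocyte lineage was read from 5 lists of 51 further genes, all of which were in the table. The region test called 5 of the 51, namely Enpp2, Cryab, Sept4, Ermn and Opalin. This share is close to the 8.89% called of all genes. Each of the 5 was called with striatum above both midbrain and PFC by the pair rule. Of all genes, that rule called 3.5% with striatum above midbrain and 2.31% with striatum above PFC. Enpp2, which makes lysophosphatidic acid, had a striatal mean of 26.4 ± 34.8 CPM (SD, n = 12), a midbrain mean of 5.595 ± 4.999 (n = 12) and a PFC mean of 5.13 ± 3.86 (n = 11). Cryab, a small heat shock protein, was at 8.63 ± 4.46, 4.60 ± 2.41 and 3.77 ± 1.74 CPM in the same order. Sept4, a septin of the sheath, was at 10.9 ± 6.00, 5.45 ± 2.57 and 5.36 ± 2.44 CPM. Ermn and Opalin, both of mature oligodendrocytes, had striatal means of 4.31 and 2.23 CPM, with PFC means of 1.23 and 0.656. Without the striatum sample of mouse 9, 2 of the 51 were called, where 7.61% of all genes were, and with the mouse as a block 9, where 14% were.

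Of the 51 genes, 42 had a positive striatum over PFC log2 fold change (median 0.99, against 0.0081 over all genes) and 40 a positive striatum over midbrain value (median 0.78, against 0.012). By role, all 9 genes of myelin lipid and metabolism and 11 of 12 of myelin structure were positive for striatum over PFC. So were 11 of 12 of other oligodendrocyte genes, 7 of 8 of transcription factors, and 4 of 10 of the precursor and newly formed stage. The share of all genes with a positive value was not counted. These genes were counted in the same samples and are not separate replicates, so the counts of signs are descriptions.

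The lists parted by level and spread as the members did. Of the 8 genes with a mean of at least 50 CPM, 7 had a coefficient of variation under 35%, and of the 43 below that level none did. The same shares over all genes were not counted, so the split cannot be read as particular to the lineage or the members. The 7 steady ones were Cd9, a tetraspanin at 1691 CPM, Evi2a (328), Cers2 (243), a ceramide synthase of very long chains, Cd82 (216.5), Trf (160.7), Elovl1 (155.8) and Qdpr (84.7). None of these 7 passed the region test. Of lower level were Gsn (14.5 CPM), Plekhb1 (13.5), Apod (12.4), Ptgds (12.4) and Car2 (11.8), and none of these passed it either. The transcription factors were low. Olig1, the most abundant of 8, had a mean of 3.72 CPM and was counted in every sample, and Sox10 and Olig2 were at 0.843 and 0.509 CPM with no counts in 5 samples each. The 10 precursor genes summed to 0.852 to 6.76 CPM, with no counts for Pdgfra in 17 samples. Of peripheral myelin, Pmp22 was at 652 CPM and was present in every sample.

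Markers of other cells were measured in the same samples. The 10 astrocyte genes summed to 211 to 269 CPM in the midbrain, 261 to 441 in the striatum and 261 to 503 in the PFC, led by Slc1a3 (209.2 CPM) and Aldoc (65.7 CPM). Gfap, Aqp4 and Sox9 had no counts in 1 sample each. With region and sex removed, the astrocyte sum had a Pearson r of 0.75 with Mobp, 0.69 with Mbp and 0.42 to 0.56 with the other 5 (n = 35). The neuronal sum, from 13 of 14 listed genes, was 5.51 to 11.4 CPM in the midbrain, 12.7 to 26.8 in the striatum and 15.98 to 43.0 in the PFC, led by Snap25 (4.69 CPM) and Camk2a (4.10 CPM), with no counts for Th in 25 samples, and its r with the members ran from -0.12 to 0.29. The 8 endothelial genes summed to 9.23 to 55.7, 20.7 to 82.3 and 15.5 to 39.1 CPM in the same order, led by Pecam1 (22.3 CPM), with Cldn5 at 0 in 10 samples and r from 0.21 to 0.47. The 5 border macrophage genes in the table, led by Mrc1 (4.50 CPM), summed to 1.81 to 25.5, 3.56 to 9.80 and 3.21 to 10.7 CPM, with r from -0.33 to -0.031. For the microglia sum r lay between -0.14 and 0.087. The part of these cells in the region differences of the members was not tested.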

How the data were processed

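RNA of sorted microglia was sequenced as paired reads after Smart-Seq HT amplification and Nextera XT library preparation. What the authors deposited is a table of unnormalized read counts, with 1 row for each Ensembl gene. Their notes name FastQC, Trimmomatic and HISAT2, and the alignment was to GRCm38. Genes under 1 CPM in every subgroup were removed by the authors. The counting tool, annotation release and use of strand are not given in the sources used here. No deposited column was left without a sample.

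Symbols, positions and exon lengths came from GENCODE M21, which matched 21103 of 21236 IDs and left 133 without a symbol. CPM used TMM factors, and log2 CPM a prior count of 2. All tests were fitted on the whole table in R 4.3.3 with edgeR 4.0.16 (robust quasi-likelihood) and adjusted over all 21236 genes. Region and sex were additive terms in the model of all 35 samples that tested region, its pairs and sex. A model of 6 group means tested the interaction and sex in each region. Pair and sex rules follow the study, which names no adjustment for them. DESeq2 1.42.0, limma 3.58.1, Python 3.11.15, pandas 2.3.3 and matplotlib 3.10.9 were also used. The fits were tested on simulated data. Floors (3 counts) cover counting error only, and samples within a group differed by far more than counting noise, with a chi-square of 25.3 to 295 per gene over 85 pairs. The SD and SE values include the spread between samples. The SE of an edgeR log2 fold change was derived from its test, as its absolute value divided by the square root of F.

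The mouse number pairs samples of the same animal, as the titles give it. Deviations from the group means had a mean correlation of 0.225 over 34 pairs of samples from 1 mouse, of which 27 were over 0.1, and -0.0939 over 255 pairs of different mice of 1 sex. As a block, the mouse replaces sex, which it contains.

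The members, lists and comparisons were chosen with earlier results of these data known. Named genes were the 7 members, genes of the 5 oligodendrocyte lists with a region effect or a mean of at least 5 CPM, at most the 2 most abundant of other lists, and for each member the 5 genes of highest Pearson r. A few genes that this rule names are not reported here. Others are named only for a count of 0 or as the leading transcription factors, and those were chosen after their values were seen. Alternatives were DESeq2, DESeq2 size factors in edgeR, filterByExpr, the mouse as a block or as a random effect, each mouse left out, mice 1 to 6 or 7 to 12 alone, mouse 3 left out in the striatum only, and another call rule. A fit without the striatum sample of mouse 9 and one with mice 1 to 6 or 7 to 12 as a term were added after seeing the data.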

Additional observations from a re-analysis of the deposited data

Results flagged for a closer look

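In each of 42 sets of samples (7 members in 6 groups of region and sex), the highest and the lowest sample were compared with the others by Dixon's ratio of gap to range, which chance passes in about 1 in 20 groups. The ratio was passed by 3 samples. Mbp in the female PFC was at 138.2 CPM in mouse 12, with the next sample at 78.6 CPM (6370 and 3906 counts). Cnp in the female midbrain was at 193.5 CPM in mouse 10, with the next at 157.5 CPM. Mog in the male striatum was at 18.1 CPM in mouse 9, with the next at 7.39 CPM (890 and 336 counts).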

How the results depend on the processing

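Members with a region effect numbered 1 in the additive edgeR model, 4 in DESeq2, 3 after filterByExpr, 4 with the mouse as a block (the pairing of samples by mouse), 5 in limma-voom with the mouse as a random effect, 2 in mice 1 to 6 alone, 0 in mice 7 to 12 alone, 4 with these sets of mice as a term, and 0 to 2 with 1 mouse left out. In the same order, members called for PFC over midbrain numbered 1, 2, 2, 3, 2, 2, 0, 3 and 0 to 2, for striatum over PFC 1, 4, 3, 3, 5, 2, 0, 4 and 0 to 2, and for striatum over midbrain 0, 1, 1, 0, 3, 1, 0, 1 and 0 to 1. Of all genes, PFC below midbrain was called for 3.24%, 4.01%, 3.9%, 3.77%, 4.16%, 1.31%, 2.1%, 3.84% and 2.63% to 3.25%. Striatum above PFC was called for 2.31%, 2.92%, 2.63%, 3.67%, 4.57%, 1.12%, 1.2%, 3.65% and 1.69% to 2.27%. Striatum above midbrain was called for 3.5%, 4.56%, 3.96%, 5.15%, 5.88%, 0.914%, 2.51%, 4.93% and 2.58% to 3.51%. In mice 1 to 6 alone the member was Mbp, lower in the striatum, as were 1.02% of genes. By the adjusted p of the pair in the additive edgeR model, 0 members were called for striatum over PFC. Of the 51 lineage genes, 5 had a region effect, 9 with the block, 20 in limma-voom, 3 in mice 7 to 12 alone, 9 with the sets of mice as a term, 2 without the striatum sample of mouse 9, and 2 to 6 with 1 mouse left out. Calls for sex ran from 0 to 1 and for sex within a region from 0 to 2 with 1 mouse left out, and interaction calls were 0 in every fit run. The region test called 8.89% of all genes in the additive model, 12.4% of 19153 in DESeq2, 10.9% of 16966 after filterByExpr, 14% with the block, 14% in limma-voom, 2.41% in mice 1 to 6 alone, 5.57% in mice 7 to 12 alone, 12.8% with the sets of mice as a term, 7.61% without the striatum sample of mouse 9 and 6.54% to 8.73% with 1 mouse left out, of 21236 genes where no number is given. Signs turned in mice 7 to 12 alone for Mbp striatum over midbrain (0.16) and for PFC over midbrain of Mog (0.38), Cldn11 (0.15) and Mal (0.95, and -0.39 to 0.27 with 1 mouse left out). The sex log2 fold change turned negative for Mbp in limma-voom (-0.0014), in mice 1 to 6 alone (-0.00089) and with 1 mouse left out (-0.12 to 0.14), for Mobp with 1 mouse left out (-0.11 to 0.26), and for Mag in mice 1 to 6 alone (-0.022) and with 1 mouse left out (-0.017 to 0.097). The cause of these changes was not tested. The fit with sets of mice as a term and the one without the striatum sample of mouse 9 were chosen after seeing the data. Cldn11 rested on 0 to 193 counts per sample.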
